A study of Homo sapiens with 24 samples.

Results

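The difference between TPC-1 papillary thyroid carcinoma cells and Nthy-ori 3-1 normal thyroid cells was measured 72 h after both lines had been transfected against COPZ1. The 3 TPC-1 arrays and the 3 Nthy-ori 3-1 arrays labelled siCOPZ1 and 72h were taken by their sample labels, which gave 6 of the 24 arrays of the study, and all 18632 genes tested on them were described. The 6 non-targeting (siNT) arrays of 72 h served as the baseline line difference, and the 12 arrays of 48 h as further wells. Nthy-ori 3-1 is a normal thyroid follicular line immortalised with SV40 and was grown in an RPMI medium, whereas TPC-1 was grown in DMEM, so line and medium cannot be told apart in any value below. Each group had 3 wells. Cells received 20 nM of siRNA with a lipid reagent, either siCOPZ1, an esiRNA pool of short duplexes, or siNT, a universal negative control, and no untransfected group was used here. The wells are called triplicates and nothing states that they came from separate cultures, so p-values measure only the spread between these wells.

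COPZ1 encodes a zeta subunit of COPI, the coat of the vesicles that return proteins from the Golgi apparatus to the endoplasmic reticulum and carry cargo within the Golgi stack. COPZ2 encodes the other zeta subunit, and cells with little COPZ2 are known to rely on COPZ1. Cells whose COPI coat fails are known to accumulate unfolded protein in the endoplasmic reticulum, which sets off the unfolded protein response and, through the kinase EIF2AK3 and the factor ATF4, the integrated stress response.

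Across genes, arrays of one group had pairwise correlations between 0.971 and 0.989. Over the 12 arrays of 72 h, the first principal component (66.5% of the variance) separated the lines, the second (11.5%) separated siCOPZ1 from siNT in TPC-1, and on the third (4.09%) the TPC-1 arrays numbered 1 and those numbered 2 lay at opposite ends, in siNT and siCOPZ1 alike. Thyroid markers bore out the labelled cell type in part. Of 21 thyroid genes, 17 lay below the median gene in both depleted lines, including thyroglobulin (TG), the TSH receptor (TSHR) and the iodide transporter (SLC5A5), while the thyroid transcription factor PAX8 averaged 12.37 in TPC-1 and 10.03 in Nthy-ori 3-1 on the log2 scale and FOXE1 averaged 7.45 and 7.61. The summed log2 level of the thyroid list was 116.7 to 117.3 in the TPC-1 wells and 111.7 to 114.1 in the Nthy-ori 3-1 wells. Of 25 markers of other cell types, 22 lay below the median gene in both depleted lines, with the leukocyte marker PTPRC at 3.53 and 3.10, and their summed level was 126.8 to 131.0 in TPC-1 and 119.2 to 125.3 in Nthy-ori 3-1. The exceptions were the mesenchymal genes LUM, at 11.87 in TPC-1 and 7.25 in Nthy-ori 3-1, PDGFRB, at 6.32 and 8.30, and ACTA2, at 7.05 and 7.01. In such bulk samples a smaller share of cells of one kind and less RNA per cell cannot be told apart.

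COPZ1 itself was lower in depleted TPC-1 than in depleted Nthy-ori 3-1 cells. Its log2 values were 8.48, 9.23 and 9.14 in the depleted TPC-1 wells and 10.04, 9.42 and 9.68 in the depleted Nthy-ori 3-1 wells, against 11.07, 11.15 and 11.15 and 11.28, 11.23 and 11.34 in the siNT wells. All depleted wells lay below all siNT wells, and the depleted wells of the lines did not overlap. The remaining COPZ1 level of TPC-1 was 59.1% of that of Nthy-ori 3-1. On the log2 scale the difference was -0.76 ± 0.23 (SE from the limma model of all arrays of the study, adjusted p = 0.0112). A two-sided exact permutation test gave p = 0.1, its lower limit with 3 wells in each line. The call was lost without Nthy-ori 3-1 siCOPZ1 array 1 (adjusted p = 0.0719) and without TPC-1 siCOPZ1 array 1 (0.0884), with the difference between -0.91 and -0.52 over the runs that each left out 1 array. In the siNT wells the lines differed by -0.16 (adjusted p = 0.622), and the change of the line difference, -0.60, had a 95% interval of -1.26 to 0.07 (limma adjusted p = 0.371). COPZ2 was also lower in TPC-1, at 7.63, 7.52 and 7.37 against 8.28, 8.42 and 8.62 in depleted wells. The groups did not overlap, and the difference was -0.93 ± 0.14 (limma adjusted p = 1.6e-05), beside -0.57 ± 0.14 in siNT wells (adjusted p = 0.00222).

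After depletion the lines still differed at a large share of genes. In limma, 6881 of 18632 genes (36.9%) passed a Benjamini-Hochberg adjusted p of 0.05, with 3132 higher in TPC-1 (16.8%) and 3749 lower (20.1%). At least 2-fold differences made up 2936 of these (15.8% of all genes). In siNT wells 7083 genes (38.0%) were called, 3251 higher (17.4%) and 3832 lower (20.6%), and 3100 (16.6%) differed at least 2-fold. The median absolute log2 difference over all genes was 0.346 after depletion and 0.36 before. The depleted and siNT comparisons share no array, and across genes, which are not independent replicates, their differences correlated at 0.827. Of the genes called in both, 4858 differed in the same direction, which is 70.6% of the calls after depletion and 68.6% of the calls before.

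The change of each line difference was tested as an interaction, and 749 genes (4.02%) were called, 344 shifted upward in TPC-1 relative to Nthy-ori 3-1 (1.85%) and 405 downward (2.17%). The larger downward count did not hold with arrays centred on their medians (391 upward and 369 downward). In 738 of the 749 the shift between siNT and siCOPZ1 was larger in TPC-1 than in Nthy-ori 3-1, as it was in 12962 of all 18632 genes (69.6%). In Nthy-ori 3-1 itself 1 gene (0.00537%), COPZ1, was called between siCOPZ1 and siNT in limma. An unadjusted p of 0.05 was passed by 574 of 18632 genes, a smaller share than the 0.05 that would pass with no difference. Genes were then sorted by the 3 calls. Differences that stayed, called before and after in one direction with no called change, numbered 4618 (24.8%), of which 1898 were higher in TPC-1. Those that shrank numbered 123 (0.66%), those that widened 117 (0.628%), those that turned to the opposite sign 72 (0.386%), those that vanished 197 (1.06%) and those that were new 240 (1.29%). A further 1956 genes (10.5%) lost their call and 1711 (9.18%) gained one without a called change, and these are not shown to differ between conditions. Nor does the absence of a called change show that a difference was the same: of the 4618 that stayed, 3048 (66.0%) had a 95% interval of the change within -1 and 1. The classes share wells with the tests that define them, so their sizes and medians are descriptions. A fit that left out every array numbered 1, added once the data had been seen, called 442 changes, 351 of them among the 749.

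**Figure D1:**
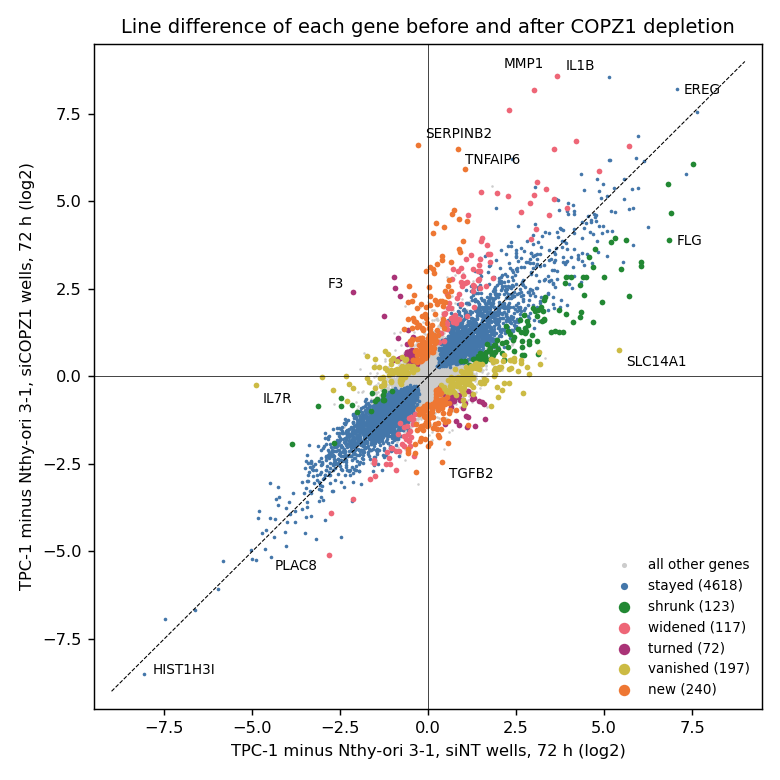
Each point is 1 of 18632 genes, with its log2 difference TPC-1 minus Nthy-ori 3-1 at 72 h in siNT wells (x axis) against that in siCOPZ1 wells (y axis), coloured by class, and the dashed line marks equal differences. Most points follow the dashed line (r = 0.827 across genes), while SERPINB2 goes from -0.30 to 6.61, IL7R from -4.91 to -0.24, SLC14A1 from 5.42 to 0.77 and F3 from -2.15 to 2.42.

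EREG, a ligand of the epidermal growth factor receptor, stood at 11.55, 11.68 and 11.61 in depleted TPC-1 wells and 3.11, 3.44 and 3.65 in depleted Nthy-ori 3-1 wells. Its wells were far apart, with a log2 difference of 8.21 ± 0.25 after depletion (297-fold, limma adjusted p = 1.68e-15) and 7.06 ± 0.25 before. TM4SF1, a tetraspanin-like surface protein of many carcinomas, stood at 12.67, 12.65 and 12.50 against 4.79, 5.47 and 4.84. It was 190-fold higher after depletion and 200-fold higher before, and the change of -0.08 had a 95% interval of -0.65 to 0.50. VEPH1, which encodes a pleckstrin homology domain protein, differed by 6.86 ± 0.23 after and 5.97 ± 0.23 before (limma adjusted p = 1.31e-14 and 1.21e-13).

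On the other side, the replication histone genes HIST1H3I and HIST1H4L were lowest in TPC-1. HIST1H3I stood at 5.43, 4.87 and 4.46 in depleted TPC-1 wells and 13.56, 13.30 and 13.42 in depleted Nthy-ori 3-1 wells. No well of one line came near the other, and the difference was -8.51 ± 0.20 after and -8.09 ± 0.20 before (limma adjusted p = 1.14e-16 and 1.05e-16). HIST1H4L differed by -6.94 and -7.48. Histone genes of these clusters are near-identical to one another, and how the probe sets separate them is not given in the sources used here. The fatty acid elongase ELOVL2 stood at 4.08, 4.30 and 3.69 against 10.61, 10.73 and 10.75, a difference of -6.68 ± 0.17 (limma adjusted p = 1.14e-16) beside -6.62 in siNT wells, with a 95% interval of the change of -0.56 to 0.44. The collagen chain COL1A1 stood at 5.54, 6.32 and 5.78 against 11.05, 11.10 and 11.16 and differed by -5.22 ± 0.19, beside -5.00 before. The RNA-binding protein gene IGF2BP1 (-5.28), the retrotransposon-derived imprinted gene PEG10 (-5.25), the neuronal adaptor gene BEX1 (-6.06), the muscle stress gene ANKRD1 (-5.16) and the bone morphogenetic protein antagonist GREM1 (-4.95) lay on the same side. Each of these 5 was called in both conditions with no called change, their differences in siNT wells being -5.84, -4.90, -5.97, -4.47 and -5.03 in that order.

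TPC-1 is known to carry a rearrangement that fuses CCDC6 to the kinase domain of RET, and both partner genes kept their line difference. They were chosen for mention after their values were seen. RET, a receptor tyrosine kinase, stood at 7.94, 7.54 and 8.07 in depleted TPC-1 wells and 4.26, 4.74 and 4.74 in depleted Nthy-ori 3-1 wells. The difference was 3.27 ± 0.23 (limma adjusted p = 7.25e-10), beside 3.92 ± 0.23 in siNT wells. CCDC6 stood at 4.49, 4.70 and 3.79 against 8.41, 8.63 and 8.40, a difference of -4.15 ± 0.29 beside -3.80. The values of a gene summarise probes over its whole transcript, so they do not separate fused from unfused RNA. The thyroid factor PAX8 also kept a higher level in TPC-1, with wells at 12.26, 12.50 and 12.35 against 9.91, 10.35 and 9.83 and a difference of 2.34 ± 0.19 (limma adjusted p = 5.67e-09), beside 1.96 before.

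Cell cycle genes were lower in TPC-1 in both conditions. Of 42 cell cycle genes, 31 were lower and 3 higher in depleted TPC-1 cells, beside 20.1% and 16.8% of all genes, and 34 were lower and 2 higher in siNT wells, with medians of -1.31 and -1.65. The median over all genes was -0.01 after depletion and 0.00 before. No member of the list had a called change, against 4.02% of all genes, and 33 of the 42 were in the class that stayed, beside 24.8% of all genes. PCNA, the sliding clamp of DNA replication, stood at 9.88, 9.81 and 9.85 in depleted TPC-1 wells and 12.14, 12.09 and 12.15 in depleted Nthy-ori 3-1 wells. Its difference was -2.28 ± 0.23 (limma adjusted p = 1.77e-07) after and -2.46 before, and that of the mitotic phosphatase gene CDC25C was -2.63 and -2.78. On the higher side were 3 genes, picked with their values in view, the D-type cyclin CCND1 (1.40), which drives entry into the cycle, and the inhibitors CDKN2B (0.96) and CDKN2A (0.63).

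Of 39 MAPK feedback genes and growth factor receptors, 23 were higher and 7 lower after depletion, and 24 and 7 before, with medians of 0.79 and 0.96. Over all genes 16.8% were higher and 20.1% lower after depletion and 17.4% and 20.6% before. The change was called higher for 1 member and lower for 5, and without the arrays numbered 1 for 0 and 1. The feedback phosphatase gene DUSP6, chosen after its values were seen, differed by 4.79 ± 0.37 after and 5.71 ± 0.37 before. The receptor FGFR2 stood at 4.21, 4.62 and 4.58 in depleted TPC-1 wells and 9.17, 8.90 and 8.77 in depleted Nthy-ori 3-1 wells, a difference of -4.48 ± 0.30 (limma adjusted p = 3.93e-10) beside -3.49. The ETS factor ETV1, a transcriptional target of this pathway, had a difference that shrank from 3.73 to 1.91. Without 1 of 3 arrays (Nthy-ori 3-1 siNT array 1, Nthy-ori 3-1 siCOPZ1 array 2 or TPC-1 siCOPZ1 array 2) the ETV1 change gave adjusted p = 0.0554, 0.0532 and 0.0515. The platelet-derived growth factor receptor PDGFRB widened from -0.68 to -1.98, and its siNT call was lost without Nthy-ori 3-1 siNT array 2 (adjusted p = 0.0879) or TPC-1 siNT array 1 (0.089). Against the siNT wells of 48 h the PDGFRB change was -0.61 and not called (limma adjusted p = 0.283).

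Of 45 interferon-stimulated genes, 21 were higher and 9 lower in depleted TPC-1 cells and 14 and 6 in siNT wells, with medians of 0.42 and 0.14. Over all genes 16.8% were higher and 20.1% lower after and 17.4% and 20.6% before. By class, 18 stayed, 10 gained a call without a called change, 2 were new and 2 lost a call. Without the arrays numbered 1 the list had 18 higher and 9 lower after depletion and 17 and 4 before. The medians were then 0.37 and 0.33, close to each other, and the change was called upward for 0 members and downward for 2. The largest member difference was that of the guanylate-binding protein gene GBP2, at 9.34, 7.94 and 9.05 against 3.97, 4.32 and 3.89. It differed by 4.72 ± 0.46 after and 3.94 ± 0.46 before (limma adjusted p = 7.33e-08 and 7.68e-07). OAS2, a sensor of double-stranded RNA, differed by 2.02 and 1.80. Changes were called for 1 member in each direction. PARP12, a zinc finger ADP-ribosyltransferase, became higher in TPC-1 (0.14 to 0.70, change adjusted p = 0.0445) and IFIT2, an antiviral RNA-binding protein, became lower (0.45 to -0.77, change adjusted p = 0.0218). In 10 and 5 of the 12 runs that left out 1 array of 72 h the adjusted p of these changes rose above 0.05, to as much as 0.117 and 0.0692, and the depleted IFIT2 call was lost without TPC-1 siCOPZ1 array 2 (adjusted p = 0.0518). IFIT1, chosen after its values were seen, stood at 5.76, 4.03 and 5.47 in depleted TPC-1 wells and 6.63, 6.67 and 6.48 in depleted Nthy-ori 3-1 wells, lower by -1.51 ± 0.33 (limma adjusted p = 0.000973), with a change of -1.37 that was not called (0.112). ISG15 (0.19) and MX1 (-0.44), chosen in the same way, were not called in depleted wells (adjusted p = 0.316 and 0.404).

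The differences that were new after depletion were led by secreted and inflammatory genes on the TPC-1 side. Of the 240, 142 were higher in depleted TPC-1 cells and 98 lower, and the median difference in the direction found after depletion went from -0.08 to 1.06. SERPINB2, an inhibitor of plasminogen activators, stood at 10.76, 11.83 and 10.99 in depleted TPC-1 wells, at 4.28, 5.19 and 4.28 in depleted Nthy-ori 3-1 wells, at 4.97, 4.29 and 4.50 in siNT TPC-1 wells and at 5.65, 3.91 and 5.10 in siNT Nthy-ori 3-1 wells. The 3 depleted TPC-1 wells stood alone and the other 9 overlapped, so that a difference of -0.30 ± 0.51 in siNT wells (limma adjusted p = 0.69) became 6.61 ± 0.51 (adjusted p = 2.85e-09), with a change of 6.92 and a 95% interval of 5.41 to 8.42. TNFAIP6, which binds hyaluronan and is induced by TNF, stood at 10.50, 9.57 and 9.61 against 3.64, 3.21 and 3.35 after depletion. In siNT wells it stood at 5.66, 4.10 and 3.16 against 3.10, 4.03 and 3.26, with TPC-1 array 1 the highest. Its difference went from 0.84 to 6.49 ± 0.60, and the change of 5.65 had an adjusted p of 0.0005 in limma. IL24, a cytokine of the IL-10 family, stood at 12.07, 10.30 and 9.67 against 4.84, 4.59 and 4.87, and its difference went from 1.03 to 5.92 ± 0.56 (limma change adjusted p = 0.000968).

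The promoters of the 4 named genes with the largest upward changes among new differences (SERPINB2, TNFAIP6, IL24 and the adaptor gene TRAF1) are shown because each of these differences was called after depletion and not before. They are from RefSeq (GRCh38.p14), the first 3 on the plus strand at chr18:63887455-63887754, chr2:151357342-151357641 and chr1:206897193-206897492 and TRAF1 on the minus strand at chr9:120929122-120929421, from 250 bases before to 50 after the start of the gene. Capitals mark the match to AP-1 (TGANTCA) in the first and the second and to the interferon-stimulated response element (on the opposite strand) in the third. The TRAF1 promoter held none of the motifs searched and has no capitals.
SERPINB2: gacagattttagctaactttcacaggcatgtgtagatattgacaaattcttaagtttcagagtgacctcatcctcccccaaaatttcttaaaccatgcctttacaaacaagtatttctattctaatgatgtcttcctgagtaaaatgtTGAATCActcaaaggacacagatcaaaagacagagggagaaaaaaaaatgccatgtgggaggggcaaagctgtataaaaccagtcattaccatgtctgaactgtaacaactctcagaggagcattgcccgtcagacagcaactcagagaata
TNFAIP6: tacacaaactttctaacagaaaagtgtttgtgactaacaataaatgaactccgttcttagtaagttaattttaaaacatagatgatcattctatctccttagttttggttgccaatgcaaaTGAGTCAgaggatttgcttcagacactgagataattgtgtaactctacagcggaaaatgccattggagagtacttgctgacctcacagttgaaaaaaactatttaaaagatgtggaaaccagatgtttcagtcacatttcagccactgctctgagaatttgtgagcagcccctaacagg
IL24: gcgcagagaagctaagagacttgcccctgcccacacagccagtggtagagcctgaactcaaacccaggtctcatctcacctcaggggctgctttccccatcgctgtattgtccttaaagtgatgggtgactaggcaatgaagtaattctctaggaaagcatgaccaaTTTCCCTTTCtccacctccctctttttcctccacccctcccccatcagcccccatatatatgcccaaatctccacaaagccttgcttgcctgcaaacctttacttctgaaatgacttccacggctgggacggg
TRAF1: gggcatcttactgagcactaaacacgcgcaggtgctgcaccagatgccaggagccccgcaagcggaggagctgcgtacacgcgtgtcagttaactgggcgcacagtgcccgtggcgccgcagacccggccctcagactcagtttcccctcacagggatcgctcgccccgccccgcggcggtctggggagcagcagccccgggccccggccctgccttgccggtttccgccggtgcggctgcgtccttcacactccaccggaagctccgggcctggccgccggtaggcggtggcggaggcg

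The matches begin at -102, -129 and -83 from the start of transcription. Of the 142 genes newly higher in TPC-1, 114 had a promoter in the table, and on either strand 9.6% of these held the AP-1 letters, 34.2% the kB motif, 4.4% the ATF4 letters TGATGNAA and 6.1% the interferon-stimulated response element. Of the 98 newly lower, 81 had one, and the shares were 1.2%, 27.2%, 0.0% and 1.2%. Over all 27305 promoters of the table the shares were 7.8%, 25.1%, 3.7% and 3.6%. A match of letters is a description and does not show binding.

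Further new differences on the TPC-1 side were those of the chemokine CCL20, the adaptor TRAF1 and the stromelysin MMP3. CCL20 stood at 8.50, 7.14 and 7.87 in depleted TPC-1 wells and between 3.39 and 4.11 in the other 9 wells of 72 h. Its difference was 4.10 ± 0.31 (limma adjusted p = 2.03e-09), beside 0.13 before. TRAF1, which binds receptors of the TNF family, stood at 8.51, 10.47 and 9.80 against 5.17, 5.29 and 5.21 and differed by 4.37 ± 0.41, beside 0.23. MMP3, which degrades matrix proteins, stood at 8.36, 7.49 and 7.30 against 3.55, 3.17 and 2.18 and differed by 4.75 ± 0.45, beside 0.75.

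The new differences on the Nthy-ori 3-1 side were smaller. TGFB2, a ligand of the TGF-beta family, stood at 7.88, 6.67 and 7.17 in depleted TPC-1 wells, against 9.70, 9.63 and 9.74 in depleted Nthy-ori 3-1, 9.90, 10.31 and 10.50 in siNT TPC-1 and 9.74, 10.54 and 9.27 in siNT Nthy-ori 3-1 wells. The siNT groups overlapped and the depleted groups did not, with a difference of -2.45 ± 0.28 (limma adjusted p = 7.33e-07) beside 0.39 before. At 48 h the siNT wells already differed by -0.93 in this gene. FILIP1L, a filamin-interacting protein, differed by -2.73 ± 0.30 beside -0.36, the adhesion scaffold NEDD9 by -1.89 ± 0.37 beside 0.56, the thyroid hormone receptor THRB by -1.74 ± 0.20 beside 0.31 and the keratin KRT80 by -1.91 ± 0.21 beside 0.04. THRB stood at 6.75, 6.61 and 6.53 in depleted TPC-1 wells and 8.39, 8.48 and 8.23 in depleted Nthy-ori 3-1 wells, which did not overlap. The complement component C5 was also in this class, at -1.40 beside 1.14, but 9 of 12 runs without 1 array lost its change (adjusted p up to 0.105), and its depleted difference was not called without TPC-1 siCOPZ1 array 2, at -0.83 (adjusted p = 0.195), nor without Nthy-ori 3-1 siCOPZ1 array 1 or 3 (0.0998 and 0.0647). Against the siNT wells of 48 h the changes of FILIP1L (-1.39, limma adjusted p = 0.0627) and NEDD9 (-1.14, 0.235) were not called.

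**Figure D2:**
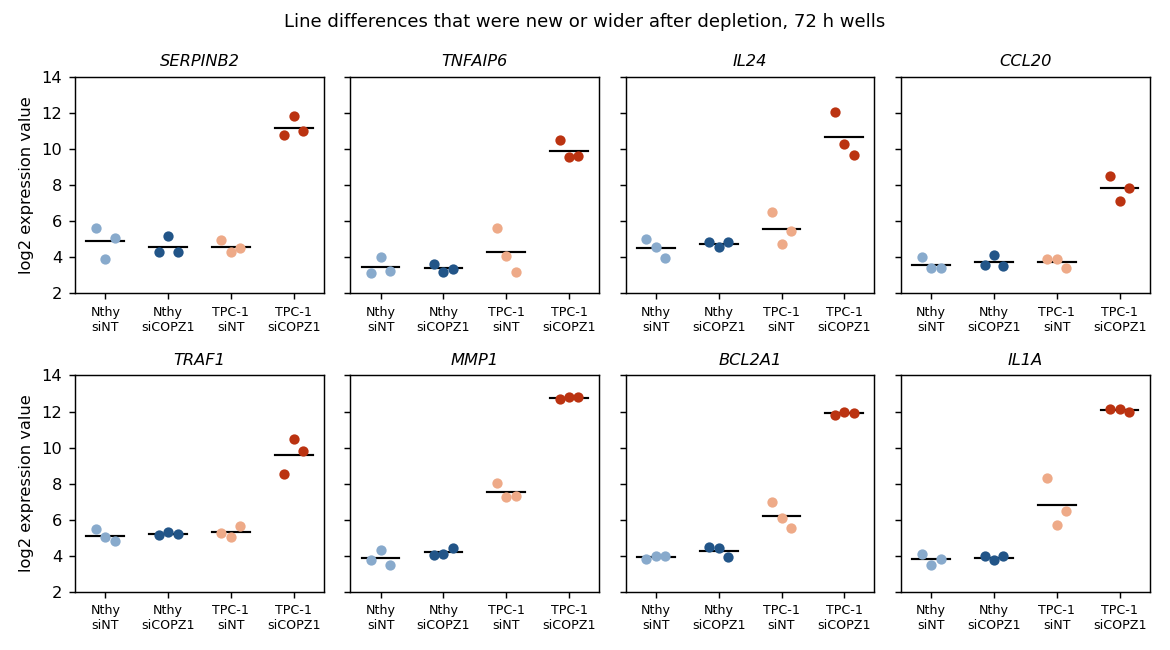
Log2 expression values of 8 genes in the 12 wells of 72 h, 3 per group, where points are wells and bars are group means. In the 5 new differences (SERPINB2, TNFAIP6, IL24, CCL20 and TRAF1) the depleted TPC-1 wells stand alone, with SERPINB2 at 10.76 to 11.83, while in MMP1, BCL2A1 and IL1A the siNT TPC-1 wells already lie above both Nthy-ori 3-1 groups.

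A second group of 117 genes already differed between the lines and differed more after depletion, 79 of them higher in TPC-1 and 38 lower, with the median difference going from 1.04 to 2.48. MMP1, an interstitial collagenase, stood at 12.68, 12.82 and 12.82 in depleted TPC-1 wells, 4.02, 4.09 and 4.42 in depleted Nthy-ori 3-1 wells, 8.06, 7.23 and 7.31 in siNT TPC-1 wells and 3.77, 4.31 and 3.50 in siNT Nthy-ori 3-1 wells. The 3 levels did not overlap, and a 12.8-fold difference became 387-fold, with a log2 change of 4.92 ± 0.41 (limma adjusted p = 1.07e-06). BCL2A1, an anti-apoptotic BCL2 family member, stood at 11.80, 11.97 and 11.91 against 4.46, 4.42 and 3.93 and went from 2.28 to 7.62 ± 0.38. The cytokine IL1A stood at 12.16, 12.12 and 11.99 against 3.99, 3.73 and 3.96 and went from 3.02 to 8.20 ± 0.61. In siNT TPC-1 wells IL1A was 8.32, 5.68 and 6.48, with array 1 the highest. NAV3, which encodes a microtubule-associated protein, went from 4.21 to 6.72 ± 0.23 and the secretory granule chaperone SCG5 from 1.49 to 5.27 ± 0.36. The integrin ITGA2, a collagen receptor, went from 3.57 to 5.06 ± 0.22. The Notch ligand gene DNER went from 1.13 to 4.62, with the siNT call lost in 3 of 12 runs without 1 array (limma adjusted p up to 0.0917). ALOX5AP, a partner of the 5-lipoxygenase, went from 5.72 to 6.59, with the call of the change lost in 8 such runs (adjusted p up to 0.101).

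IL1B and CXCL8 were larger after depletion by point estimate and were not called as changed. IL1B stood at 12.61, 11.88 and 12.03 against 3.69, 3.25 and 3.95 after depletion and at 9.96, 7.37 and 8.49 against 3.36, 3.63 and 3.38 before. Its difference was 8.54 ± 0.88 beside 5.15 ± 0.88, and the change of 3.40 had a 95% interval of 0.81 to 5.98 (limma adjusted p = 0.143). For the neutrophil chemokine CXCL8, chosen after its values were seen, the difference was 6.22 beside 2.39 and the change 3.83, with an interval of 1.22 to 6.43 (adjusted p = 0.0957). In both genes siNT TPC-1 array 1 was the highest of its group, at 9.96 and 10.17.

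On the Nthy-ori 3-1 side, PLAC8, a cysteine-rich protein, widened most. It stood at 6.24, 5.94 and 7.16 in depleted TPC-1 wells and 11.69, 11.51 and 11.49 in depleted Nthy-ori 3-1 wells, and 8.58, 9.31 and 9.60 against 12.02, 12.18 and 11.78 in siNT wells. The lines were apart in both conditions, by -2.82 ± 0.25 before and -5.11 ± 0.25 after (limma change adjusted p = 0.0005). The xenobiotic and oestrogen hydroxylase CYP1B1 went from -0.91 to -2.68 and the heparan sulfate proteoglycan SDC2 from -0.42 to -2.29. The siNT difference of SDC2 was called in 5 of the 12 runs that left out 1 array, with an adjusted p of up to 0.168 in the others. The siNT calls of PHLDB2 (-0.56) and RAB19 (-0.52) were each lost in 4 of 12 such runs, with adjusted p up to 0.121 and 0.11 in limma. Against the siNT wells of 48 h the CYP1B1 change was -0.87 and not called (limma adjusted p = 0.174).

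**Figure D3:**
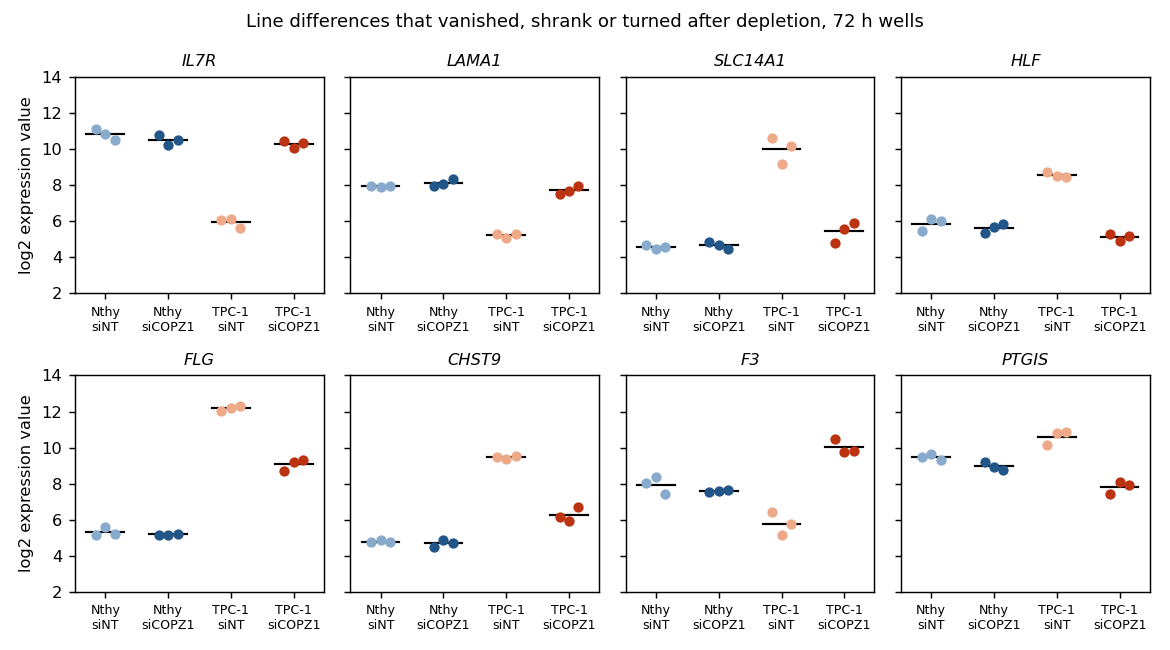
Log2 expression values of 8 genes in the 12 wells of 72 h, 3 per group, where points are wells and bars are group means. In each panel the siNT and siCOPZ1 wells of TPC-1 lie apart, while those of Nthy-ori 3-1 overlap in all but LAMA1 and PTGIS, and the depleted TPC-1 wells of IL7R, at 10.05 to 10.43, overlap the depleted Nthy-ori 3-1 wells, at 10.26 to 10.79.

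In 197 genes the line difference vanished, which means that it was called in siNT wells, not called after depletion, and its change was called. Of these, 122 had been higher in TPC-1 and 75 lower, and the median difference went from 1.05 to -0.10. In 171 of the 197 the 95% interval of the remaining difference lay within -1 and 1. IL7R, a subunit of the interleukin 7 receptor, stood at 6.07, 6.10 and 5.63 in siNT TPC-1 wells and 11.14, 10.86 and 10.52 in siNT Nthy-ori 3-1 wells, and after depletion at 10.43, 10.05 and 10.37 against 10.79, 10.26 and 10.53. A 30.0-fold difference gave way to overlapping groups, from -4.91 ± 0.29 to -0.24 ± 0.29 (limma change adjusted p = 2.19e-06). LAMA1, a laminin chain, stood at 5.30, 5.10 and 5.30 against 7.93, 7.93 and 7.94 before and at 7.54, 7.70 and 7.94 against 7.95, 8.08 and 8.32 after. All depleted TPC-1 wells lay below the depleted Nthy-ori 3-1 wells, and its difference went from -2.70 to -0.39 ± 0.17. The 95% interval of what remained was -0.74 to -0.05 (limma adjusted p = 0.0708), so a smaller difference may be left. The chemokine-scavenging receptor ACKR3 went from -2.34 to 0.02 ± 0.33. CD274, which encodes the checkpoint ligand PD-L1, went from -1.14 ± 0.28 to 0.65 ± 0.28 (change adjusted p = 0.0106 in limma). What remained of CD274 was not called, but it lay between 0.55 and 0.75 over the runs that each left out 1 array. A smaller difference of the opposite sign may therefore be left. The remaining difference of LAMA1 and that of CD274 were each called in 1 of the 12 runs that left out 1 array. EID3 went from -1.73 to 0.58, and its change lost the call in 8 of 12 runs without 1 array (limma adjusted p up to 0.111) and against the siNT wells of 48 h (0.238).

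Among genes that had been higher in TPC-1, the urea transporter SLC14A1 lost the largest difference. It stood at 10.64, 9.16 and 10.19 in siNT TPC-1 wells and 4.66, 4.47 and 4.59 in siNT Nthy-ori 3-1 wells, and after depletion at 4.82, 5.60 and 5.90 against 4.88, 4.67 and 4.48. The depleted groups overlapped, and a 42.9-fold difference became 1.70-fold, with log2 values of 5.42 ± 0.68 and 0.77 ± 0.68 (limma change adjusted p = 0.00717). HLF, a circadian PAR bZIP factor, stood at 8.72, 8.49 and 8.45 against 5.44, 6.15 and 6.002 before and at 5.30, 4.90 and 5.21 against 5.37, 5.66 and 5.84 after. The depleted TPC-1 wells were then the lower group, by -0.49 ± 0.22, which was not called (adjusted p = 0.0918). The binding protein IGFBP5 went from 3.17 to 0.36 and the phosphate transporter SLC17A1 from 2.87 to 0.06. The growth factor receptor FGFR4 went from 1.79 to -0.83, although its change lost the call in 7 of 12 runs without 1 array (adjusted p up to 0.0924). Against the siNT wells of 48 h the changes of SLC14A1 (-1.93, limma adjusted p = 0.29), IGFBP5 (-1.72, 0.123) and SLC17A1 (-1.28, 0.117) were not called.

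In 123 genes the difference shrank and was still called, 107 of them higher in TPC-1 and 16 lower, with the median going from 2.68 to 1.05. FLG, the epidermal filament-associated protein, stood at 12.003, 12.22 and 12.31 in siNT TPC-1 wells and 5.18, 5.59 and 5.23 in siNT Nthy-ori 3-1 wells, and at 8.72, 9.19 and 9.33 against 5.16, 5.17 and 5.22 after depletion. The lines stayed apart, with a 115-fold difference that became 14.9-fold and a change of -2.95 ± 0.23 (limma adjusted p = 1e-06). The Golgi sulfotransferase CHST9 stood at 9.48, 9.37 and 9.53 against 4.74, 4.86 and 4.77 before and at 6.13, 5.92 and 6.69 against 4.48, 4.90 and 4.69 after, and went from 4.67 to 1.56 ± 0.21. The organic anion transporter SLCO4C1 went from 5.70 to 2.30, the cadherin CDH6 from 6.05 to 3.28, the phospholipid flippase ATP8A1 from 4.94 to 2.11, the sialyltransferase ST6GALNAC3 from 2.71 to 0.62 and the elongase ELOVL6 from 2.65 to 1.28. ST6GALNAC3 lost its depleted call without Nthy-ori 3-1 siCOPZ1 array 1 (adjusted p = 0.0577). The sodium channel SCN3A went from 6.04 to 3.16 but held its called change in only 2 of 12 such runs (adjusted p up to 0.123). The CDH6 change was -1.57 and not called against the siNT wells of 48 h (limma adjusted p = 0.0556).

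Fewer differences shrank from the Nthy-ori 3-1 side. The secreted glycoprotein STC2, a target of ATF4, stood at 7.52, 7.34 and 7.29 in siNT TPC-1 wells and 10.56, 10.28 and 10.67 in siNT Nthy-ori 3-1 wells, and at 9.16, 10.12 and 9.89 against 10.64, 10.48 and 10.60 after. The groups were apart both times, by -3.12 ± 0.26 and -0.85 ± 0.26 (limma adjusted p = 7.62e-09 and 0.0128). Without TPC-1 siCOPZ1 array 1 the remaining difference was -0.57 and not called (adjusted p = 0.101). The lymphatic growth regulator CCBE1 went from -3.86 to -1.94, the centrosome and Golgi anchor PDE4DIP from -2.47 to -0.61, the heparanase HPSE from -2.16 to -0.81 and the translation initiation factor EIF2S3 from -2.48 to -0.86. For HPSE the change was not called without Nthy-ori 3-1 siCOPZ1 array 2 or TPC-1 siCOPZ1 array 3 (adjusted p = 0.0576 and 0.0514). For EIF2S3 the siNT wells of 48 h gave -0.59, and the change against that baseline was -0.27 (adjusted p = 0.744).

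In 72 genes the lines changed places. Of these, 32 were lower in TPC-1 with siNT and higher after depletion, and 40 went the other way. F3, tissue factor, the starter of blood coagulation, stood at 6.40, 5.14 and 5.78 in siNT TPC-1 wells and 8.03, 8.35 and 7.40 in siNT Nthy-ori 3-1 wells, and at 10.48, 9.78 and 9.79 against 7.52, 7.62 and 7.66 after. The lines did not overlap in either condition, and the difference went from -2.15 ± 0.35 to 2.42 ± 0.35 (limma adjusted p = 5.15e-05 and 1.43e-05). GFPT2, an enzyme of hexosamine synthesis, went from -0.93 to 2.54, the small GTPase RND3 from -1.27 to 1.73, the TNF receptor TNFRSF1B from -0.96 to 2.83 and the neuron navigator NAV2 from -0.79 to 2.31. The siNT call of TNFRSF1B was lost in 5 of 12 runs without 1 array (adjusted p up to 0.152), and that of NAV2 without Nthy-ori 3-1 siNT array 1 or TPC-1 siNT array 3 (0.0822 and 0.0787).

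Of the genes that turned the other way, PTGIS, prostacyclin synthase, stood at 10.15, 10.78 and 10.88 in siNT TPC-1 wells and 9.46, 9.63 and 9.32 in siNT Nthy-ori 3-1 wells, and at 7.40, 8.07 and 7.93 against 9.18, 8.95 and 8.75 after. Its groups did not overlap in either condition, and the difference went from 1.13 ± 0.23 to -1.16 ± 0.23 (limma adjusted p = 0.000425 and 0.000371). The insulin-like growth factor carrier IGFBP3 went from 1.58 to -0.80, with the latter lost in 9 of 12 runs without 1 array (adjusted p up to 0.124). The sodium channel SCN9A went from 1.62 to -1.23, and without Nthy-ori 3-1 siCOPZ1 array 1, TPC-1 siCOPZ1 array 1 or TPC-1 siCOPZ1 array 2 the latter was not called (adjusted p = 0.0604, 0.0694 and 0.0568). The lipid droplet methyltransferase METTL7A, from 1.34 to -1.43, lost each of its 3 calls in 4 of 12 such runs. CSRNP3 went from 1.11 to -1.45, with the siNT call lost in 3 of 12 such runs (limma adjusted p up to 0.111). Its depleted call was lost without TPC-1 siCOPZ1 array 2 (0.0521), and its change was not called without every array numbered 1. Against the siNT wells of 48 h the changes of IGFBP3 (-0.91, limma adjusted p = 0.266) and SCN9A (-1.69, 0.0715) were not called, and the siNT difference of PTGIS was 0.18 (0.635).

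Among the gene lists, that of inflammatory cytokines and NF-kB targets shifted furthest between the conditions. Its members were chosen with earlier results of these data known, so this rank and the shares of all genes beside it are descriptions. Of its 36 members, 33 were higher in depleted TPC-1 cells and 0 lower, beside 16.8% and 20.1% of all genes, and 20 were higher and 0 lower in siNT wells, beside 17.4% and 20.6%. The median difference was 1.22 before and 3.47 after, while the median level in Nthy-ori 3-1 wells was 6.03 with siNT and 6.17 with siCOPZ1. The change was called upward for 21 members and downward for 1, beside 1.85% and 2.17% of all genes. By class, 11 members were new, 10 widened, 9 stayed, 3 gained a call without a called change and 1 vanished. Beyond the genes above, chosen after their values were seen, the prostaglandin synthase PTGS2 went from 0.67 to 4.63, the NF-kB inhibitor TNFAIP3 from 1.97 to 5.25, the chemokine CCL2 from 2.63 to 4.71, the cytokine TNF from 1.52 to 3.95 and the growth factor CSF2 from 1.11 to 4.43. These genes were not followed in the runs that left out 1 array. The CSF2 change had a limma adjusted p of 0.0449, and its siNT TPC-1 wells were 5.80, 3.36 and 3.47, with array 1 the highest. The member that went down, CX3CL1, a membrane-bound chemokine, went from 2.62 to 0.46 and was likewise chosen after its values were seen. Without the arrays numbered 1 the list had 32 higher after depletion, 18 before and 20 upward changes. TNFAIP2, named by the rule, went from 1.47 to 3.37 ± 0.24 (limma change adjusted p = 0.00248, and 0.0528 without every array numbered 1).

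Of 24 matrix proteases and members of the plasminogen system, 13 were higher and 5 lower after depletion and 9 and 4 before, with medians of 0.83 and 0.37. Over all genes 16.8% were higher and 20.1% lower after and 17.4% and 20.6% before. The change was called upward for 6 and downward for 0, beside 1.85% and 2.17% of all genes. Among these were SERPINB2, MMP1, MMP3, the gelatinase MMP9 (1.26 to 3.08 ± 0.18) and, chosen after its values were seen, the urokinase receptor PLAUR (0.96 to 2.57). TIMP3, a metalloprotease inhibitor chosen in the same way, kept a lower level in TPC-1 (-2.31 after and -2.82 before).

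Of 31 genes for folding and degrading proteins in the endoplasmic reticulum, 17 were higher and 2 lower in TPC-1 after depletion and 5 and 7 before, with medians of 0.46 and -0.06, beside 16.8% and 20.1% of all genes after and 17.4% and 20.6% before. Changes were called for 11, all upward, beside 1.85% of all genes. HSPA5, the main chaperone BiP, stood at 12.63, 12.74 and 12.61 in depleted TPC-1 wells and 11.57, 11.74 and 11.65 in depleted Nthy-ori 3-1 wells, and 11.85, 11.94 and 11.84 against 11.65, 11.75 and 11.60 in siNT wells. The depleted TPC-1 wells were the highest of the 12, and the difference went from 0.21 ± 0.10 to 1.01 ± 0.10 (limma change adjusted p = 0.00179). The stress-induced growth factor MANF went from -0.15 to 0.97 ± 0.12 and the degradation factor HERPUD1 from 0.70 to 1.70 ± 0.16. Without the arrays numbered 1, 13 were higher and 1 lower after depletion and 4 changes were called, with the changes of HSPA5 (0.77, adjusted p = 0.0608) and HERPUD1 (0.9992, 0.138) no longer among them.

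Of 36 genes of the integrated stress response, 12 were lower and 3 higher in siNT TPC-1 wells, and after depletion 4 were lower and 11 higher, with medians of -0.19 and 0.17. Called members made up 41.7% of the list both times, near the 36.9% of all genes after and 38.0% before. The change was called upward for 9 and downward for 0, beside 1.85% and 2.17% of all genes. ALDH1L2, a mitochondrial folate enzyme, stood at 8.64, 8.43 and 8.20 in depleted TPC-1 wells and 4.95, 5.19 and 5.07 in depleted Nthy-ori 3-1 wells, and went from 1.08 to 3.36 ± 0.23 (limma change adjusted p = 0.000236). Chosen after their values were seen, the death-related factor DDIT3 went from -1.67 to -0.15 and the cysteine synthesis enzyme CTH from -0.41 to 2.34. NUPR1, a stress-induced chromatin protein, differed by 3.87 after and 3.86 before. Without the arrays numbered 1 the list had 10 higher and 0 lower after depletion and 5 upward changes.

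In the COPI coat list, to which COPZ2 belongs, 7 of 24 genes were higher and 3 lower after depletion and 1 and 5 before, with medians of 0.19 and 0.02. All genes gave 16.8% higher and 20.1% lower after and 17.4% and 20.6% before. No change was called in the list, beside 4.02% of all genes, a share at which few calls would fall among 24 genes. COPG2, a gamma subunit of the coat, stood at 6.75, 6.71 and 7.00 in depleted TPC-1 wells and 9.17, 8.99 and 9.24 in depleted Nthy-ori 3-1 wells. Its lower level in TPC-1 held in both conditions, at -2.31 ± 0.21 and -1.26 ± 0.21 (limma adjusted p = 4.08e-08 and 7.68e-05), and the change of -1.05 was not called (0.0566). Of the 24, 10 (41.7%) were called after depletion beside 36.9% of all genes, and 25.0% in siNT wells beside 38.0%.

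Of 29 genes of sterol and fatty acid synthesis, 3 were higher and 11 lower after depletion and 6 and 5 before, with medians of -0.24 and 0.07. Over all genes 16.8% were higher and 20.1% lower after and 17.4% and 20.6% before. Both called changes were downward, namely ELOVL6, given above, and the desaturase SCD, which stood at 11.53, 11.36 and 11.54 in depleted TPC-1 wells and between 12.33 and 12.79 in the other 9. The SCD difference was -1.18 ± 0.20 after and 0.03 before, and its change was not called without Nthy-ori 3-1 siNT array 1, Nthy-ori 3-1 siCOPZ1 array 3 or TPC-1 siNT array 3 (adjusted p = 0.0556, 0.0503 and 0.0533). Without every array numbered 1 neither change was called, ELOVL6 at -1.46 (limma adjusted p = 0.126) and SCD at -1.29 (0.0731). FDPS, of the mevalonate pathway, was lower in both conditions (-1.59 and -1.22).

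**Figure D4:**
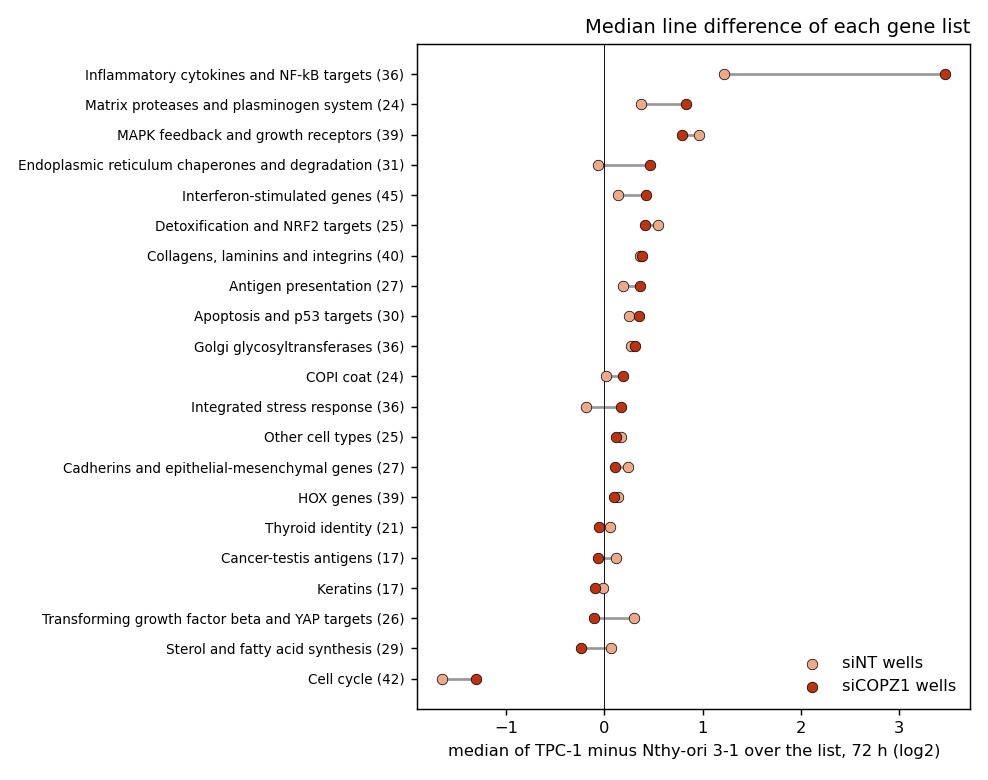
Median log2 difference TPC-1 minus Nthy-ori 3-1 at 72 h over the measured members of each gene list (number in brackets) in siNT wells (light) and siCOPZ1 wells (dark). The inflammatory list moves from 1.22 to 3.47, the cell cycle list lies at -1.65 and -1.31, and the lists of the endoplasmic reticulum and the integrated stress response pass from below to above 0.

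Counts in the remaining lists were as follows. The shares of all genes to set beside them were 16.8% higher and 20.1% lower after depletion. In siNT wells these shares were 17.4% and 20.6%. Of 40 collagens, laminins and integrins, 18 were higher and 6 lower after depletion and 18 and 7 before. Of 27 antigen presentation genes, 11 and 3 were called after and 11 and 4 before, with the peptide-trimming enzyme ERAP2 at 3.31 and 3.43 and the checkpoint ligand PDCD1LG2 widening from 0.83 to 3.02. The siNT call of PDCD1LG2 was lost without Nthy-ori 3-1 siNT array 3 (adjusted p = 0.172) or TPC-1 siNT array 1 (0.143). Of 25 detoxification and NRF2 targets, 11 were higher and 3 lower both times, with the quinone reductase NQO1 at 1.96 and 1.97 and the haem oxygenase HMOX1 widening from 0.94 to 3.11. The siNT call of HMOX1 was lost in 5 of 12 runs without 1 array (adjusted p up to 0.0918). Of 30 apoptosis and p53 genes, 15 were higher and 6 lower after and 12 and 6 before. The inflammatory caspase CASP4 stayed (3.21 before and 3.71 after). The death receptor TNFRSF10A widened from 1.85 to 2.81, a change lost in 7 of 12 runs without 1 array (adjusted p up to 0.0917).

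For the lists that follow, 16.8% of all genes were higher and 20.1% lower after depletion, 36.9% in total. Called shares were 51.9% for cadherins and epithelial-mesenchymal genes, 41.7% for Golgi glycosyltransferases and 65.4% for TGF-beta and YAP targets. Of 27 cadherins and epithelial-mesenchymal genes, 9 were higher and 5 lower after depletion, with the transcription factor SNAI2 at 5.06 beside 3.64 and the cadherin CDH4 at 3.71 beside 3.80. Of 36 Golgi glycosyltransferases, 12 were higher and 3 lower, with the sialyltransferase ST3GAL1 at 3.68 beside 2.65 and the heparan sulfotransferase HS3ST3A1 at 3.35 beside 3.08. TGF-beta and YAP targets split into 9 higher and 8 lower of 26, with the receptor TGFBR2 at 3.30 beside 3.94. Of 39 HOX genes, 4 were higher and 4 lower, with HOXC8 at -1.47 and HOXB7 at -1.55, and of 21 thyroid genes 3 were higher and 0 lower. Keratins had 2 higher and 2 lower of 17, with KRT15 at 1.99. Cancer-testis antigens had 3 higher and 1 lower of 17, with SSX1 at -1.99 and PAGE2 at 0.50, a call lost without TPC-1 siCOPZ1 array 1 (adjusted p = 0.213) and in 3 further such runs. Markers of other cell types had 2 higher, of which LUM (4.62) was 1, and 2 lower of 25.

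The 48 h wells share no array with those of 72 h and gave a separate reading of the same contrast. At 48 h after depletion 5062 genes (27.2%) differed between the lines in limma, beside 5121 (27.5%) in siNT wells. No change of the line difference was called (0.0%). An unadjusted limma p of 0.05 was passed by 615 of 18632 genes, a smaller share than the 0.05 that would pass with no change. The sign of the change at 48 h was that of 72 h in 82.9% of the genes that shrank, 87.2% of those that widened, 94.4% of those that turned, 83.8% of those that vanished and 86.7% of those that were new, against 59.0% of all genes. Its size was smaller. The median difference of genes that shrank was 2.17 with siNT and 1.94 with siCOPZ1 at 48 h, and that of genes that widened was 0.92 and 1.32. Genes new at 72 h had medians of -0.05 and 0.22 at 48 h, and 54 of the 240 were already called in the same direction in depleted wells of 48 h. MMP1 differed by 6.43 and BCL2A1 by 4.80 in depleted wells of 48 h, whereas SERPINB2 differed by -0.69 and IL7R by -3.69. Genes that stayed had a median of 0.75 in both conditions of 48 h.

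**Figure D5:**
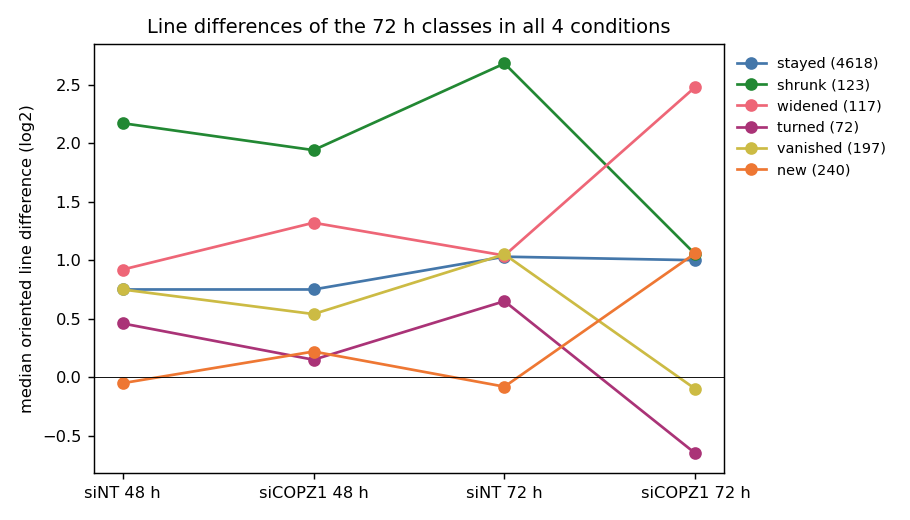
Median log2 line difference of each class (number of genes in brackets) in the 4 conditions, oriented so that a positive value is the direction in siNT wells of 72 h, or for new differences the direction in siCOPZ1 wells of 72 h. The classes were chosen on the 72 h values; in the separate 48 h wells the median of genes that widened is 0.92 with siNT and 1.32 with siCOPZ1, and that of genes that stayed is 0.75 in both.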

How the data were processed

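Total RNA of 24 wells was hybridised to Affymetrix whole-transcript arrays, 3 for each of 8 groups of line, siRNA and time. The deposited values were log2 expression values per gene, which per the submitters' processing notes came from RMA, a method of background correction, quantile normalization and probe summary. They ran from 1.70 to 14.17. No source used here gives versions or the probe-to-gene map, and RMA compresses differences of dim genes. Arrays hold no read depth, so the number of arrays limits the precision.

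Of 18637 lines, 5 symbols stood on more than 1 line, and 18632 genes were tested, 28 of them under symbols turned into dates. Of these, 18432 matched a RefSeq GRCh38.p14 gene. A limma model (3.58.1, R 4.3.3) with 8 group means gave the line difference in siCOPZ1 and in siNT wells and the change between them, with adjusted p-values by Benjamini-Hochberg over all genes and a threshold of 0.05. Genes were sorted into classes by these 3 calls. SE and 95% intervals come from the same model, with 16 residual degrees of freedom. The model was checked on simulated data. COPZ1 also had an exact permutation test.

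Named genes were COPZ1, COPZ2, the 10 largest differences in each direction whose wells did not overlap, the 5 largest changes in each direction of each class with a called change, and from each list the 2 called members with the smallest adjusted p after depletion and the 2 with the smallest among called changes, 111 in all. Genes named by clone, Y-linked genes, XIST and dates were passed over, and some genes that the rule would name are not reported here, although counts over lists include them. Members and the 21 gene lists were chosen with earlier results of these data known. Alternatives were other sets of arrays, median centring, a filter on dim genes, a trended and robust spread, the array number as a block, a 2-fold minimum, siNT wells of 48 h as the baseline, and leaving out arrays.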

Additional observations from a re-analysis of the deposited data

Results flagged for a closer look

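The line difference itself differed between siCOPZ1 and siNT wells of 72 h in 749 genes, by the interaction term of the limma model. The values below are that change for the genes named by the rule, as the log2 line difference (TPC-1 minus Nthy-ori 3-1) after depletion less the one in siNT wells. A positive value is a shift toward TPC-1. Upward changes that left the line difference new were those of SERPINB2 (6.92), TNFAIP6 (5.65), IL24 (4.88), TRAF1 (4.14), MMP3 (4.00), CCL20 (3.97), MANF (1.12), HSPA5 (0.80) and PARP12 (0.57). Downward changes that left the line difference new were those of TGFB2 (-2.84), C5 (-2.54), NEDD9 (-2.45), FILIP1L (-2.37), THRB (-2.04), KRT80 (-1.95), IFIT2 (-1.22) and SCD (-1.21). Upward changes that left the line difference wider were those of BCL2A1 (5.34), IL1A (5.18), MMP1 (4.92), SCG5 (3.78), DNER (3.49), NAV3 (2.51), ALDH1L2 (2.28), PDCD1LG2 (2.18), HMOX1 (2.16), TNFAIP2 (1.90), MMP9 (1.81), ITGA2 (1.49), HERPUD1 (1.00), TNFRSF10A (0.96) and ALOX5AP (0.88). Downward changes that left the line difference wider were those of PLAC8 (-2.29), SDC2 (-1.87), CYP1B1 (-1.77), PHLDB2 (-1.58), RAB19 (-1.48) and PDGFRB (-1.30). Upward changes that left the line difference smaller were those of STC2 (2.27), CCBE1 (1.92), PDE4DIP (1.86), EIF2S3 (1.62) and HPSE (1.36). Downward changes that left the line difference smaller were those of SLCO4C1 (-3.40), CHST9 (-3.11), FLG (-2.95), SCN3A (-2.89), ATP8A1 (-2.83), CDH6 (-2.77), ST6GALNAC3 (-2.10), ETV1 (-1.82) and ELOVL6 (-1.36). Upward changes that left the line difference no longer called were those of IL7R (4.66), ACKR3 (2.36), LAMA1 (2.31), EID3 (2.31) and CD274 (1.79). Downward changes that left the line difference no longer called were those of SLC14A1 (-4.66), HLF (-3.18), IGFBP5 (-2.81), SLC17A1 (-2.81) and FGFR4 (-2.63). Upward changes that left the line difference of opposite sign were those of F3 (4.57), TNFRSF1B (3.79), GFPT2 (3.47), NAV2 (3.10) and RND3 (3.00). Downward changes that left the line difference of opposite sign were those of SCN9A (-2.84), METTL7A (-2.77), CSRNP3 (-2.55), IGFBP3 (-2.38) and PTGIS (-2.29). No group of 3 wells was tested for a single well far from the others.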

How the results depend on the processing

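With 12 arrays of 72 h, median centring, the dimmest genes left out, or a trended and robust spread, the 3 counts of calls and the class counts of the 72 h comparisons stayed within 1.5 times those reported. The labels do not say that equal array numbers pair wells. Deviations of same-numbered arrays of 72 h correlated between -0.051 and 0.09 across lines, and at 0.163, 0.16 and 0.041 between siCOPZ1 and siNT in TPC-1 and 0.163, 0.158 and 0.028 in Nthy-ori 3-1. Within each line all 6 arrays correlated best with their own number, a hint from the data and not the design, and across lines 3 of 6 depleted and 2 of 6 siNT arrays did. The array number as a replicate block gave 7136, 7399 and 993 calls after depletion, in siNT wells and for the change. With only the 6 arrays of each contrast 6563 and 6404 genes were called, and the change could not be computed. Median centring moved no contrast by more than 0.044, but it gave 391 upward and 369 downward changes, where the main fit had 344 and 405. The siNT wells of 48 h as the baseline gave 548 upward and 499 downward changes. Every other setting kept more downward than upward changes. A 2-fold minimum left 2936 calls after depletion and 3100 in siNT wells, with 1919 that stayed, 61 that shrank, 50 that widened, 7 that turned, 923 with a call lost and 730 with a call gained, by fewer genes passing. With siNT wells of 48 h as the baseline 1047 changes were called, 473 of them among the 749. By class 191 then widened, 493 were new and 1100 lost a call. The class was kept by 58 of the 123 genes that shrank, 66 of the 117 that widened and 34 of the 72 that turned. It was also kept by 88 of the 197 that vanished and 164 of the 240 that were new. Against that baseline the siNT difference was 0.118 for RAB19 (limma adjusted p = 0.698) and -0.93 for TGFB2 (0.0164), opposite in sign to that of 72 h, and the change of EIF2S3 was -0.27 (0.744). In addition, 15 named changes and 12 named siNT differences kept their sign and lost their call against it, the changes being those of CDH6, CYP1B1, EID3, FILIP1L, HPSE, IGFBP3, IGFBP5, NEDD9, PDGFRB, PHLDB2, SCN3A, SCN9A, SLC14A1, SLC17A1 and TNFRSF10A (adjusted p of 0.0556 to 0.606) and the siNT differences those of CSRNP3, EID3, EIF2S3, FDPS, GFPT2, HMOX1, IGFBP3, PDCD1LG2, PTGIS, SCG5, SCN9A and TNFRSF1B (0.0558 to 0.933). The cause was not tested. Leaving out every array numbered 1, added after seeing the data, called 442 changes, with 55 that shrank, 66 that widened and 112 that vanished, from fewer arrays. Leaving out 1 array at a time gave 6020 to 6926 calls after depletion, 6196 to 7162 in siNT wells and 485 to 791 changes. It gave 4254 to 4451 that stayed, 76 to 122 that shrank, 62 to 113 that widened, 42 to 79 that turned, 120 to 212 that vanished, 165 to 280 that were new, 1533 to 2373 with a call lost and 1357 to 2117 with a call gained. The low ends of the change, shrunk, widened and vanished counts came without TPC-1 siNT array 3, and the low end of the turned count without Nthy-ori 3-1 siCOPZ1 array 1. The widened count also fell below 117 by over 1.5 times without Nthy-ori 3-1 siNT array 1 (68) or 2 (75) or TPC-1 siNT array 2 (77), and the shrunk count below 123 without Nthy-ori 3-1 siCOPZ1 array 1 or 3 (80 each) or TPC-1 siCOPZ1 array 2 (78). Of the named genes called after depletion, 91 of 101 kept the call in all 12 of these runs, as did 81 of 92 in siNT wells and 60 of 72 for the change.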
